A study of Mus musculus with 24 samples.

Results

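The genes described here are 8 markers of the formative and primed states of pluripotency: Otx2, Pou3f1, Utf1, Lin28a, Lin28b, Zic2, Zic5 and Foxd3. They were taken by gene symbol from both deposited tables of normalized gene counts. Of the 8 genes, 7 were found by symbol, among 23095 genes listed for J1 cells and 25476 for the tet-off lines, and all 7 passed the filter on low values. Pou3f1 was not found by symbol. The row with the Ensembl gene ID of its protein-coding model, ENSMUSG00000078236 (NCBIM37 chr4:124334896-124337899), held at most 1 read in any library. A pseudogene model on the same strand shares 3003 of its 3004 exon bases, so reads there cannot be assigned to either model and the row is not a measurement of Pou3f1.

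Poly(A) RNA was sequenced from mouse embryonic stem cells (ESCs) and from 2 kinds of extended or expanded potential stem cells, called D-EPSCs and L-EPSCs after their protocols. The question was how the EPSC states differ from ESCs, and what L-EPSCs do when Oct4, Sox2 or Nanog is withdrawn. There were 24 libraries in 12 groups of 2, with 11612919 to 15069899 reads on genes in the 6 J1 libraries and 10807631 to 14798984 in the 18 tet-off libraries.

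The J1 groups were wild-type J1 cells without treatment in 3 media. ESC medium held serum, LIF, the GSK3 inhibitor CHIR99021 and the MEK inhibitor PD0325901. D-EPSC medium was N2B27 with serum replacement, LIF, CHIR99021, dimethindene maleate and minocycline, and held no MEK inhibitor. L-EPSC medium held serum replacement, LIF, CHIR99021, PD0325901, the SRC family inhibitor A-419259, the tankyrase inhibitor XAV939, JNK inhibitor VIII and the p38 inhibitor SB203580. The labels allow feeder fibroblasts or gelatin for ESCs and L-EPSCs and do not say which was used for a given library, while the methods of the study describe both kinds of EPSCs as grown without feeders before sequencing. The tet-off groups were ESCs, L-EPSCs without doxycycline (Dox) and L-EPSCs with Dox of 3 lines, in which Oct4 (ZHBTc4), Sox2 (2TS22C) or Nanog (NgcKO) comes from a transgene that Dox shuts off and the endogenous gene is lost. The factor therefore comes from a transgene in the untreated cells too, and each factor was studied in a single line. The length of Dox treatment for these libraries and a separate ESC medium for the tet-off lines are not given in the labels. The labels do not state that replicates were separate cultures, so p-values measure the spread between these libraries, which may be technical.

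Naive pluripotent cells, which resemble the epiblast before implantation, go through a formative state before they become primed for germ layer formation. Otx2 and Pou3f1 (also called Oct6) are transcription factors that redirect Oct4 to new enhancers during this transition. Utf1 is a chromatin protein of pluripotent cells, Lin28a and Lin28b are RNA-binding proteins that block maturation of let-7 microRNAs, Zic2 and Zic5 are zinc finger transcription factors, and Foxd3 is a forkhead factor needed by the epiblast and later by the neural crest.

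Withdrawal of the 3 factors was checked first. Pou5f1, which encodes Oct4, was at 6420 and 6316 normalized counts in the untreated L-EPSCs of the Oct4 line and at 162 and 184 with Dox. Sox2 was at 4966 and 4701 in the untreated L-EPSCs of its line and at 47.0 and 53.1 with Dox. Nanog was at 9119 and 8847 in its line without Dox and at 3166 and 3112 with Dox. The targeted transcript was therefore lower with Dox in both libraries of each line, to low levels for Pou5f1 and Sox2 and to an intermediate level for Nanog. The other factors were lower too in the Oct4 and Sox2 lines. Sox2 went from 5483 and 5480 to 260 and 230 in the Oct4 line, and Pou5f1 from 8221 and 8490 to 3291 and 3073 in the Sox2 line. Nanog went from 7424 and 7636 to 691 and 726 in the Oct4 line and from 7883 and 7557 to 654 and 733 in the Sox2 line. Pou5f1 in the Nanog line went from 10948.5 and 10877 to 8380 and 7726 and Sox2 from 4850 and 4848 to 3940 and 3895, log2 fold changes of -0.44 and -0.31 within the threshold for Dox.

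Each comparison used limma, fitted to log2(normalized count + 1) for all genes of its table, and a gene was called at a Benjamini-Hochberg adjusted p under 0.05 with a log2 fold change beyond 0.6, or beyond 1 for Dox and for differences of an effect between lines. In J1 D-EPSCs against ESCs, 6 of the 7 genes were called higher and 1 lower, where 10.8% and 9.98% of the 21533 genes tested were called higher and lower. In J1 L-EPSCs against ESCs, 4 were called higher and 1 lower, where 8.80% and 11.5% of all genes were. In L-EPSCs against D-EPSCs, 4 were called, each lower, with 4.80% of all genes called higher and 8.58% lower. These 3 comparisons share libraries and are not independent of each other.

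In the tet-off lines every gene of the 7 that was called on conversion was lower. Between ESCs and untreated L-EPSCs, 6 of the 7 genes were called lower in the Oct4 line, where 13.0% of the 24007 genes tested were called higher and 15.4% lower. In the Sox2 line 4 were called lower, against 7.99% of all genes called higher and 11.6% lower. In the Nanog line 6 were called lower, against 12.2% higher and 14.7% lower. The J1 and tet-off tables were normalized separately, so no test was made across them.

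With Dox, 4 of the 7 genes were called lower in the Oct4 line, where 8.53% of all genes were called higher and 10.8% lower. In the Sox2 line 6 were called lower, against 7.79% of all genes called higher and 7.32% lower. In the Nanog line 2 were called, both higher, against 2.80% of all genes called higher and 2.59% lower. With its Dox and untreated libraries fitted alone, the genes called in the Nanog line were 181 higher and 298 lower, against 672 and 621 in the fit of all groups, and the same 2 of the 7 genes were called. The untreated L-EPSCs of a line stand in both its conversion and its Dox comparison. The difference of the Dox effects was called for 2 of the 7 genes between the Oct4 and Sox2 lines (6.81% of all genes), 4 between the Oct4 and Nanog lines (14.8%) and 6 between the Sox2 and Nanog lines (11.3%). The difference of the conversion effects was called for 1 gene between the Oct4 and Sox2 lines (5.36% of all genes), 2 between the Oct4 and Nanog lines (8.58%) and 2 between the Sox2 and Nanog lines (9.16%).

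**Figure D1:**
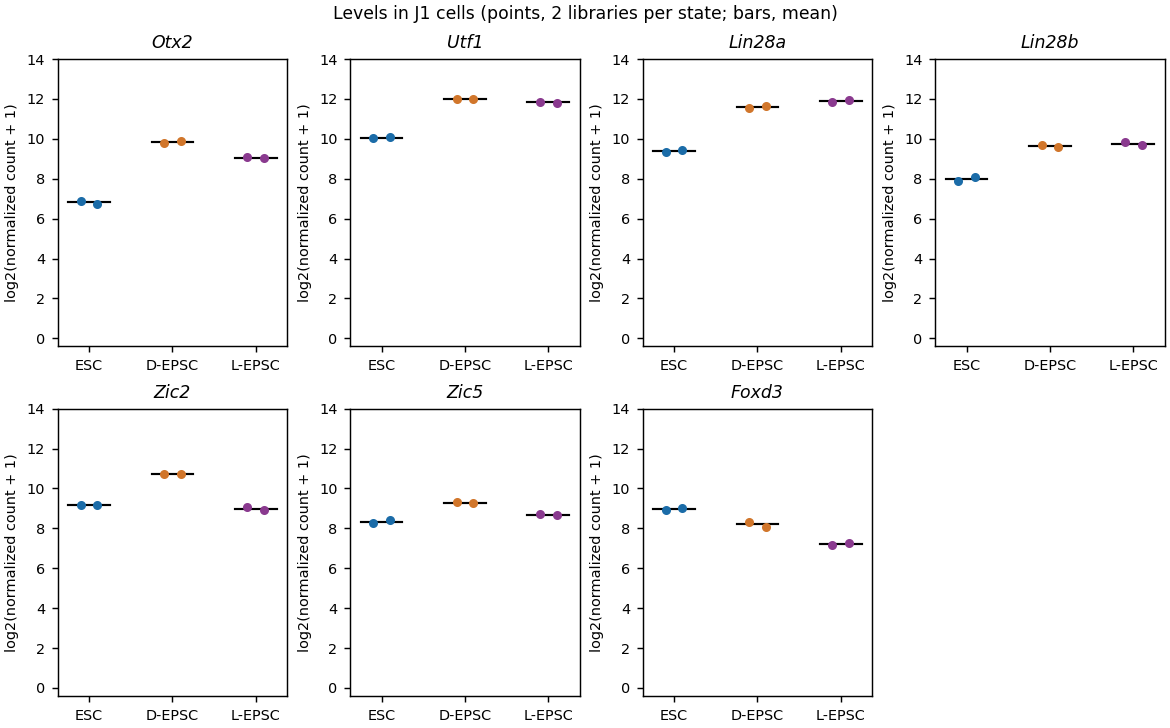
Levels of the 7 genes in J1 cells as log2(normalized count + 1) on the vertical axis, by state on the horizontal axis, with a point for each of the 2 libraries and a bar at their mean. Otx2 is lowest in ESCs (117 and 106 normalized counts) and Foxd3 is highest there (475 and 527).

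Otx2 (ENSMUSG00000021848, NCBIM37 chr14:49277354-49287319, minus strand), the homeobox factor of the formative transition, was at 117 and 106 normalized counts in J1 ESCs, 887 and 965 in D-EPSCs and 541 and 517 in L-EPSCs. The 3 states did not overlap. Otx2 was 8.25-fold higher in D-EPSCs than in ESCs (log2 fold change 3.04, 95% interval 2.85 to 3.24, limma adjusted p = 1.4e-07) and 4.72-fold higher in L-EPSCs (2.24, interval 2.05 to 2.43). L-EPSCs held 1.75-fold less than D-EPSCs.

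The tet-off lines started from different levels of Otx2. ESCs of the Oct4 line held 835 and 844 normalized counts and those of the Sox2 line 888 and 830, while ESCs of the Nanog line held 100.4 and 87.4. Otx2 was thus 8.88-fold higher in ESCs of the Oct4 line than in those of the Nanog line, and 9.08-fold higher in those of the Sox2 line. Untreated L-EPSCs were at 519 and 545 in the Oct4 line, 463 and 454 in the Sox2 line and 22.4 and 25.5 in the Nanog line. Otx2 was therefore lower after each conversion (log2 fold changes -0.66, -0.90 and -1.93), and the fall was larger in the Nanog line than in the Oct4 line (difference 1.27, limma adjusted p = 4.7e-06) and in the Sox2 line (difference 1.03, limma adjusted p = 4.7e-05). The difference from the Sox2 line fell inside the threshold of 1 without Sox2 line ESC replicate 2 (0.98), Nanog line ESC replicate 1 (0.93) or Nanog line L-EPSC replicate 1 (0.93).

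With Dox, Otx2 moved in opposite directions. It was at 71.4 and 67.7 normalized counts in the Oct4 line and at 77.5 and 86.7 in the Sox2 line, both far under their untreated L-EPSCs. In the Nanog line it was at 256 and 269, above both untreated libraries and above the ESCs of that line. The fold was 7.56 lower with Dox in the Oct4 line (limma adjusted p = 5.9e-13), 5.54 lower in the Sox2 line (8.1e-12) and 10.6 higher in the Nanog line (1.2e-12). The Dox effect differed from the Nanog line by -6.32 on the log2 scale in the Oct4 line (95% interval -6.62 to -6.02) and by -5.87 in the Sox2 line (interval -6.18 to -5.57). Between the Oct4 and Sox2 lines the effect differed by -0.45, which was within the threshold.

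**Figure D2:**
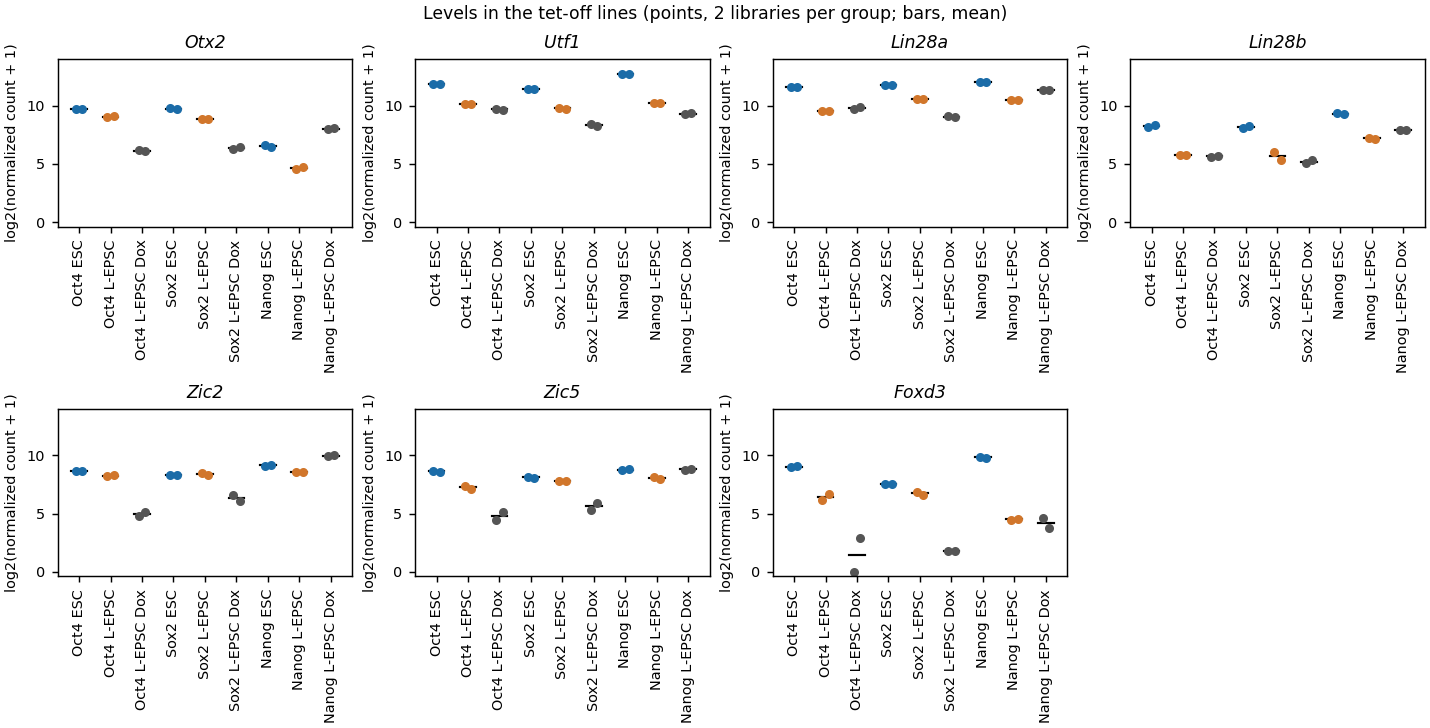
Levels of the 7 genes in the tet-off lines as log2(normalized count + 1) on the vertical axis, by line and state on the horizontal axis, with a point for each of the 2 libraries and a bar at their mean. Otx2 with Dox lies at 71.4 and 67.7 normalized counts in the Oct4 line and at 256 and 269 in the Nanog line.

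Utf1 (ENSMUSG00000047751, chr7:147129688-147131011, plus strand) was the most abundant of the 7 genes per kilobase of exon in J1 ESCs, at 868 normalized counts per kilobase, and in both EPSC states. It was at 1042 and 1088 normalized counts in ESCs, 4088 and 4134 in D-EPSCs and 3746 and 3616 in L-EPSCs. The EPSC libraries lay above both ESC libraries, by 3.86-fold in D-EPSCs (limma adjusted p = 2.9e-08) and 3.45-fold in L-EPSCs (4.2e-08). The difference between the EPSC states, -0.16 on the log2 scale (interval -0.24 to -0.08), was within the threshold.

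In the tet-off lines Utf1 was high in ESCs, at 3663 and 3611 normalized counts in the Oct4 line, 2772 and 2716 in the Sox2 line and 6870 and 6871 in the Nanog line. Untreated L-EPSCs were at 1134 and 1128, 900 and 841, and 1187 and 1184 in the same order. The fall was 3.21-fold, 3.15-fold and 5.79-fold, and no group of ESCs overlapped with its L-EPSCs. With Dox, Utf1 was at 850 and 813 in the Oct4 line, 353 and 300.1 in the Sox2 line and 616 and 667 in the Nanog line. The fall passed the threshold for Dox in the Sox2 line, by 2.67-fold (limma adjusted p = 1.5e-11), while the log2 fold changes of -0.44 and -0.89 in the Oct4 and Nanog lines lay within it with limma adjusted p of 1.3e-05 and 2.0e-08. The difference of the Dox effect between the Oct4 and Sox2 lines was 0.97, just inside the threshold of 1, and passed it without Sox2 line Dox replicate 1 (1.09), Sox2 line L-EPSC replicate 2 (1.02) or Oct4 line Dox replicate 2 (1.00).

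Lin28a (ENSMUSG00000050966, chr4:133559245-133574756, minus strand) was at 659 and 691 normalized counts in J1 ESCs, 3040 and 3154 in D-EPSCs and 3687 and 3914 in L-EPSCs. Lin28b (ENSMUSG00000063804, chr10:45096426-45206201, minus strand) was at 239 and 271 in ESCs, 821 and 783 in D-EPSCs and 930 and 814 in L-EPSCs. Both genes were higher in the 2 EPSC states than in ESCs without overlap, Lin28a by 4.59-fold and 5.62-fold and Lin28b by 3.14-fold and 3.41-fold. Neither gene was called between D-EPSCs and L-EPSCs, and the EPSC libraries of Lin28b overlapped. An antisense lincRNA model shares 103 exon bases with Lin28a, 2.94% of its exon length, and it is listed at no more than 14.6 normalized counts in any library.

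In the tet-off lines both genes fell on conversion. Lin28a went from 3188 and 3113 normalized counts in ESCs to 738 and 749 in L-EPSCs of the Oct4 line, from 3492 and 3417 to 1513 and 1553 in the Sox2 line, and from 4249 and 4157 to 1411 and 1455 in the Nanog line. Lin28b went from 281 and 329 to 54.1 and 53.9, from 277 and 302 to 63.7 and 38.9, and from 644 and 628 to 150.2 and 141 in the same lines. The ESCs and L-EPSCs of a line did not overlap for either gene, and the falls were 4.23-fold, 2.25-fold and 2.93-fold for Lin28a and 5.55-fold, 5.70-fold and 4.35-fold for Lin28b.

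With Dox, Lin28a was at 840 and 946 in the Oct4 line, above its untreated libraries by 0.26 on the log2 scale, within the threshold. It was at 563 and 509 in the Sox2 line, a 2.86-fold fall (limma adjusted p = 1.5e-12), and at 2643 and 2532 in the Nanog line, 0.85 higher on the log2 scale and also within the threshold (limma adjusted p = 7.0e-09). The Dox effect on Lin28a differed between the Oct4 and Sox2 lines by 1.78 (95% interval 1.61 to 1.94) and between the Sox2 and Nanog lines by -2.37. Lin28b with Dox was at 48.4 and 51.1, 32.2 and 39.2, and 245 and 242 in the Oct4, Sox2 and Nanog lines, and was called in none of these Dox comparisons by limma or by edgeR, while its unadjusted p was under 0.05 in 2 of the 3. Its log2 fold changes of -0.12, -0.48 and 0.74 lay within the threshold, with limma adjusted p of 0.67, 0.044 and 0.0054. The difference of its effect between the Sox2 and Nanog lines was -1.22 (limma adjusted p = 0.0013), and -0.87 without Sox2 line L-EPSC replicate 1, which is inside the threshold.

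The let-7 microRNAs were not measured in these poly(A) libraries. Their seed is shown because both LIN28 genes are known let-7 targets as well as let-7 blockers. All 9 mature let-7 and miR-98 sequences of the RefSeq table (GRCm38.p6) carry the seed GAGGUAG at bases 2 to 8, shown in capitals:
mmu-let-7a-5p: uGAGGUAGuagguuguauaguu
mmu-let-7g-5p: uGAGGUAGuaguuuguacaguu
The complement of the seed, CTACCTC, occurs 2 times in the 3′ untranslated region of Lin28a and 4 times in that of Lin28b, and in none of those of the other 6 genes. Of 19915 genes with such a region in the annotation, 8.81% held a match and 1.01% held 2 or more. The first match of each gene, at chr4:133561104-133561126 and chr10:45100828-45100850 (NCBIM37, minus strand), is shown with the match in capitals. A match of letters is a description and not a tested site.
Lin28a: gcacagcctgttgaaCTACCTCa
Lin28b: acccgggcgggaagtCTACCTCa

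Of 12 genes of the let-7 pathway (enzymes that trim or tail let-7 precursors and known let-7 targets), the log2 fold changes ran from -0.55 to 0.50 in J1 D-EPSCs against ESCs and from -0.58 to 0.59 in L-EPSCs, inside the threshold of 0.6. Their medians were 0.01 and -0.03, beside 0.01 and 0.00 for all genes. In the conversions 4 of 12 were called lower in each line, and 2, 1 and 2 higher in the Oct4, Sox2 and Nanog lines. Their medians were -0.33, -0.31 and -0.28. Of all genes 15.4%, 11.6% and 14.7% were called lower and 13.0%, 7.99% and 12.2% higher. Trim71, a let-7 target that represses messenger RNAs, was lower in each line (log2 fold changes -2.06, -1.42 and -2.21), as was Igf2bp1, which binds messenger RNAs (-1.30, -0.81 and -1.21). With Dox 1 of 12 was called in each line, higher each time. This was Arid3a in the Oct4 line (1.76) and the Sox2 line (1.49) and Hmga2, a chromatin protein, in the Nanog line (2.28). Of all genes 8.53%, 7.79% and 2.80% were called higher with Dox in the Oct4, Sox2 and Nanog lines.

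Zic2 (ENSMUSG00000061524, chr14:122874604-122879074, plus strand) and Zic5 (ENSMUSG00000041703, chr14:122856017-122864899, minus strand) are neighbours, with 9704 bases between their gene models. Zic2 was at 568 and 580 normalized counts in J1 ESCs, 1680 and 1704 in D-EPSCs and 545 and 476 in L-EPSCs. Zic5 was at 303 and 346 in ESCs, 637 and 615 in D-EPSCs and 415 and 401 in L-EPSCs. Both genes were highest in D-EPSCs, 2.94-fold over ESCs for Zic2 and 1.93-fold for Zic5. In L-EPSCs neither was called against ESCs, with log2 fold changes of -0.17 and 0.33, and both were lower than in D-EPSCs, Zic2 by 3.32-fold and Zic5 by 1.53-fold. The call of Zic5 between the EPSC states was lost with median centring (-0.60) and without D-EPSC replicate 1 or L-EPSC replicate 2 (-0.59 each).

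On conversion in the tet-off lines, Zic2 was at 393 and 406 normalized counts in ESCs and 295 and 318 in L-EPSCs of the Oct4 line, 317 and 322 against 355 and 307 in the Sox2 line, and 556 and 564 against 381 and 374 in the Nanog line. Zic2 was not called in any of these, with log2 fold changes of -0.38, 0.05 and -0.57 inside the threshold (limma adjusted p of 0.036, 0.88 and 0.0034). Its groups overlapped in the Sox2 line and not in the Oct4 and Nanog lines. Zic5 went from 398 and 384 to 166 and 138 in the Oct4 line, a 2.57-fold fall, from 287 and 262 to 221 and 217 in the Sox2 line, which was not called, and from 429 and 441 to 284 and 247 in the Nanog line, a 1.64-fold fall. The call in the Nanog line was lost without ESC replicate 1 (-0.73, limma adjusted p = 0.057), ESC replicate 2 (-0.69, 0.071) or L-EPSC replicate 2 (-0.61, 0.093). The fall was larger in the Oct4 line than in the Sox2 line (difference -1.04, limma adjusted p = 0.015), a call that held without Oct4 line L-EPSC replicate 1 and was lost without any other of the 8 libraries, with limma adjusted p from 0.0531 to 0.0999.

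With Dox, Zic2 was at 26.5 and 33.3 normalized counts in the Oct4 line, 94.9 and 64.6 in the Sox2 line and 953 and 1009 in the Nanog line. Zic5 was at 20.7 and 34.4, 37.9 and 59.7, and 430 and 447 in the same order. Both genes were under every untreated library in the Oct4 and Sox2 lines and above the untreated L-EPSCs in the Nanog line. The fall of Zic2 was 10.0-fold in the Oct4 line and 4.18-fold in the Sox2 line, and the effects differed between these lines by -1.26 (limma adjusted p = 0.00014; -0.98 without Sox2 line Dox replicate 1, which is within the threshold). In the Nanog line Zic2 was 2.59-fold higher (limma adjusted p = 1.7e-06), and Zic5 was 0.72 higher on the log2 scale, within the threshold. Zic5 was 5.50-fold and 4.53-fold lower in the Oct4 and Sox2 lines. Over the 18 tet-off libraries, which share groups and lines, Pearson's r of Zic2 with Zic5 was 0.955.

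Foxd3 (ENSMUSG00000067261, chr4:99322990-99325362, plus strand, a single exon) was the gene of the 7 that was lower in both J1 EPSC states than in ESCs. It was at 475 and 527 normalized counts in ESCs, 324 and 271 in D-EPSCs and 141 and 153 in L-EPSCs, with no overlap between states. The fall was 1.69-fold in D-EPSCs (limma adjusted p = 0.0012; 0.063 without ESC replicate 2) and 3.39-fold in L-EPSCs (1.1e-05). A microRNA model on the same strand shares 89 bases with its exon, 3.75% of the length.

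In the tet-off ESCs, Foxd3 was at 511 and 526 normalized counts in the Oct4 line, 181 and 183 in the Sox2 line and 924 and 873 in the Nanog line. Untreated L-EPSCs held 69.2 and 104, 116 and 94.8, and 21.3 and 22.4. Foxd3 was thus lower in both L-EPSC libraries of each line. The fall was 39.3-fold in the Nanog line (interval of the log2 fold change -6.55 to -4.05) and 6.05-fold in the Oct4 line, where the adjusted p was 0.0016 by limma and 0.094 with a pseudocount of 0.1. In the Sox2 line the log2 fold change of -0.79 was not called by limma (interval -2.04 to 0.46) and was called by edgeR and DESeq2 on recovered reads (-0.77 and -0.79). The fall was larger in the Nanog line than in the Sox2 line by 4.51 (limma adjusted p = 0.00064) and than in the Oct4 line by 2.7 (limma adjusted p = 0.024). Both calls were lost with a pseudocount of 0.1 (limma adjusted p of 0.0605 and 0.285), and the second was lost without any 1 of the 8 libraries, with limma adjusted p from 0.0634 to 0.136.

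With Dox, Foxd3 came to the limit of detection in the Oct4 and Sox2 lines. It had 0 and 6 reads in the Oct4 line and 3 and 3 in the Sox2 line, against 194 and 202 reads over the 2 untreated libraries. Scaled for depth, the summed reads were 25.5-fold lower in the Oct4 line (exact 95% counting interval 11.5 to 70.4) and 42.5-fold lower in the Sox2 line (19.2 to 117). These intervals cover counting error alone. In the Nanog line 37 reads with Dox stood against 42 without, a ratio of 0.834 with an interval of 0.521 to 1.33, so a difference was not detectable at this depth. The Dox effects on Foxd3 differed from the Nanog line by -4.60 in the Oct4 line and -4.57 in the Sox2 line. The first was -3.13 without Oct4 line Dox replicate 1, which held 0 reads, and -6.07 without Dox replicate 2. The call of the Oct4 line was lost when its Dox and untreated libraries were fitted alone (limma adjusted p = 0.100).

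**Figure D3:**
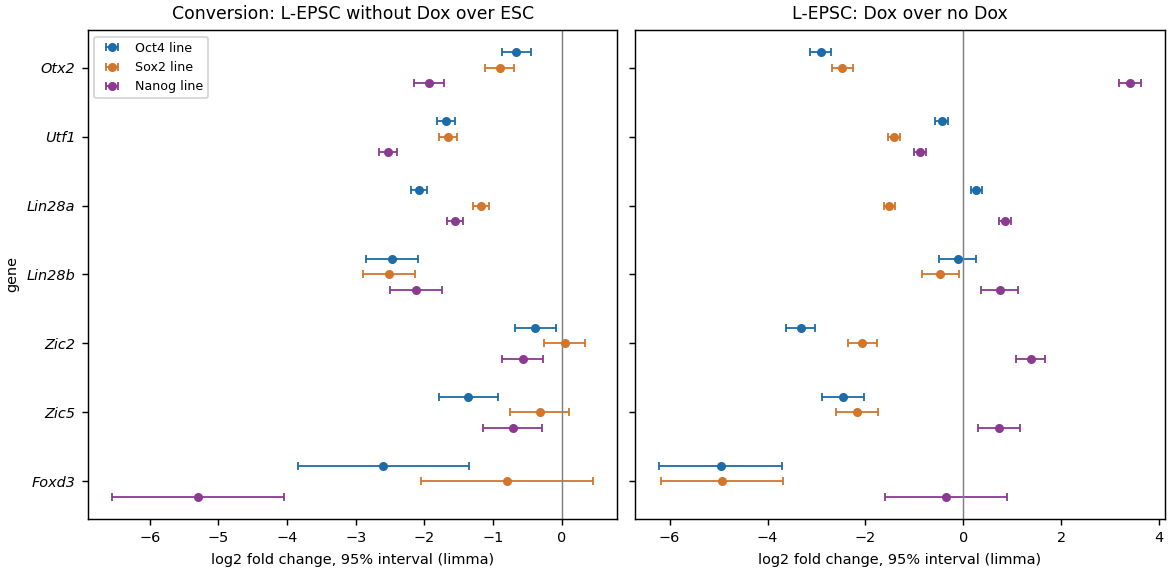
Log2 fold changes by limma with 95% intervals on the horizontal axis for the 7 genes on the vertical axis, on conversion of ESCs to untreated L-EPSCs and with Dox in L-EPSCs, with a colour for each line. Otx2 with Dox lies at -2.92 and -2.47 in the Oct4 and Sox2 lines and at 3.40 in the Nanog line.

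Otx2, Zic2, Zic5 and Foxd3 were called lower with Dox in both the Oct4 and the Sox2 line, so the stretches around their transcription starts were read for short motifs. RefSeq promoters (GRCm38.p6, 250 bases before to 50 after the start) were listed for 6 of the 8 genes, not for Pou3f1 or Zic2. On both strands, the octamer ATGCAAAT is held by 1.74% of 32851 promoters of this length, the SOX core ACAATG by 12.6% and the TATA box TATAAA by 13.6%. The CAAT box CCAAT is held by 37.4%, the GC box GGGCGG by 35.7% and the E-box CACGTG by 7.15%. The octamer was found in none of the 9 listed promoters of the 6 genes, and the SOX core in that of Lin28a. No match says that these letters are not in this window, and nothing of the factors. The promoters of Zic5 (chr14:122465609-122465908, minus strand) and Foxd3 (chr4:99656049-99656348, plus strand) are shown with the matches, GGGCGG in Zic5 and CACGTG in Foxd3, in capitals.
Zic5: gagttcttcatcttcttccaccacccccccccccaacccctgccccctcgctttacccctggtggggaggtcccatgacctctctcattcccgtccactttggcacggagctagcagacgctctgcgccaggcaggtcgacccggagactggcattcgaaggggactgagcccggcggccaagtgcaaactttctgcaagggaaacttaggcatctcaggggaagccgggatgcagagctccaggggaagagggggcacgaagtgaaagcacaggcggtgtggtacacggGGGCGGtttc
Foxd3: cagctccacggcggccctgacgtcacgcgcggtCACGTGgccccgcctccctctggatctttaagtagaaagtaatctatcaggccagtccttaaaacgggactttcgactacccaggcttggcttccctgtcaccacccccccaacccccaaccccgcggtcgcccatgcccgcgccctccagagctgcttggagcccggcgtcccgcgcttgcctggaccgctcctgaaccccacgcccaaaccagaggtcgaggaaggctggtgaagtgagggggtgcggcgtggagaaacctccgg

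The untreated lines were compared at the same state, with the threshold of 0.6. Between ESCs of the Oct4 and Sox2 lines 0 of the 7 genes were called by limma (12.3% of all genes), with 5 at an unadjusted p under 0.05, and edgeR called 1, Foxd3. Between ESCs of the Oct4 and Nanog lines 3 were called by limma (14.9% of all genes) and 4 by edgeR, Foxd3 (-0.79) being the addition. Between ESCs of the Sox2 and Nanog lines 6 were called (18.9%). Between untreated L-EPSCs 1 was called for the Oct4 and Sox2 lines (7.46% of all genes), 5 for the Oct4 and Nanog lines (20.7%) and 3 for the Sox2 and Nanog lines (17.8%). ESCs of the Nanog line held less Otx2 and more Utf1 and Lin28b than ESCs of both other lines.

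Among 16 other genes of the formative state, 14 were called higher for J1 D-EPSCs against ESCs (median log2 fold change 2.28, all genes 0.01) and 11 for L-EPSCs (median 1.86, all genes 0.00). Sox11 (5.37 and 5.34), the Wnt effector Lef1 (4.19 and 5.49), the ERK phosphatase Dusp6 (3.27 and 3.93) and Tcf15 (2.98 and 3.31) had the largest changes. In the tet-off conversions 12, 12 and 11 of the 16 were called lower in the Oct4, Sox2 and Nanog lines, with medians of -1.57, -1.22 and -1.82. The log2 fold changes of Dusp6 were -3.31, -3.22 and -4.41. With Dox 8 were called lower and 3 higher in the Oct4 line, 9 and 3 in the Sox2 line, and 3 and 2 in the Nanog line. Over all genes, 10.8% and 9.98% were called higher and lower in J1 D-EPSCs and 8.80% and 11.5% in L-EPSCs. In the conversions of the Oct4, Sox2 and Nanog lines these were 13.0% and 15.4%, 7.99% and 11.6%, and 12.2% and 14.7%. With Dox they were 8.53% and 10.8%, 7.79% and 7.32%, and 2.80% and 2.59%. The same shares stand beside the lists below.

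Of the 12 genes of the primed state 11 were tested in each table. In J1 D-EPSCs 1 was called higher and 6 lower, and in L-EPSCs 2 and 6, with medians of -1.61 and -0.62. The Nodal antagonist Lefty2 was lower (-3.33 and -1.89), and Eomes, a T-box factor of the primitive streak, was lower in D-EPSCs (-2.18) and higher in L-EPSCs (1.73). In the conversions 3, 4 and 5 were called lower and 2, 1 and 2 higher in the Oct4, Sox2 and Nanog lines. With Dox 6, 8 and 3 were called lower in the same order, and 1 was called higher in the Sox2 line. Nodal was lower in each conversion (-2.58, -1.28 and -1.73).

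Of 15 genes of the naive state, 10 were called lower and 1 higher in J1 D-EPSCs and 9 and 1 in L-EPSCs, with medians of -0.91 and -0.78. Tfcp2l1, a naive transcription factor, was lower (-3.45 and -2.11), and Gbx2 was higher (1.79 and 2.34). In the tet-off conversions 9, 5 and 10 were called lower and 1 higher in each line, with medians of -0.87, -0.35 and -1.17. With Dox 13 were called lower in both the Oct4 and the Sox2 line, with medians of -2.31 and -1.84, and 3 lower and 1 higher in the Nanog line. Of the family members of the 8 genes 10 of 11 were tested, with 2 called higher and 1 lower in J1 D-EPSCs against ESCs and 1 higher in L-EPSCs. In the conversions 3, 1 and 4 were called higher and 1 lower in each line. With Dox 5, 2 and 1 were called lower and 1 was called higher, in the Nanog line. Of all genes 13.0%, 7.99% and 12.2% were called higher and 15.4%, 11.6% and 14.7% lower in the conversions. With Dox these shares were 8.53%, 7.79% and 2.80% higher and 10.8%, 7.32% and 2.59% lower.

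Markers of other cell types were measured beside these genes. In bulk RNA, fewer cells of a type and less RNA per cell cannot be told apart. The 8 fibroblast markers summed to 90096 and 92285 normalized counts in J1 ESCs, 56003 and 56269 in D-EPSCs and 18676 and 19261 in L-EPSCs. Col1a1 was the most abundant (45290 in ESCs as the mean), and none was at 0 in any J1 library. Members went both ways in D-EPSCs against ESCs, with 2 called higher and 3 lower (median log2 fold change 0.02). In L-EPSCs 0 were called higher and 6 lower (median -1.42). Of all genes 10.8% were called higher and 9.98% lower in D-EPSCs, and 8.80% and 11.5% in L-EPSCs. In the tet-off libraries the 7 markers listed summed to between 188 and 621, and at least 1 of Col3a1, Postn and Lum was at 0 in each. Their part in the J1 differences of the 7 genes was not tested. The 10 trophoblast markers summed to 6577 and 6390 in untreated L-EPSCs of the Oct4 line and 34056 and 33304 with Dox, and to 3836 and 3978 against 16258 and 16235 in the Sox2 line, where Krt8 was the most abundant with Dox. In the Nanog line they summed to 3142 and 3092 without and 2965 and 2944 with Dox. With Dox, 7 of 10 were called higher in the Oct4 line, 9 in the Sox2 line and 1 in the Nanog line. Of all genes 8.53%, 7.79% and 2.80% were called higher with Dox in the same order. The 8 ESC markers, which include Pou5f1, Sox2 and Nanog and so the gene withdrawn, fell in sum from 46809 and 46019 to 6063 and 6235 in the Oct4 line, from 52354 and 52188 to 11652 and 11225 in the Sox2 line, and from 54818 and 53647 to 36112 and 34698 in the Nanog line, where 1 of the 8, Nanog, was called. The part of these changes in the Dox results was not tested.

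The markers moved on conversion too, and differently by line. From ESCs to untreated L-EPSCs, 6 of the 10 trophoblast markers were called higher in the Oct4 line. In the Sox2 line 4 were called lower, and in the Nanog line 4 higher. Of all genes 13.0%, 7.99% and 12.2% were called higher in the Oct4, Sox2 and Nanog lines, and 15.4%, 11.6% and 14.7% lower. In ESCs they summed to 2999 and 2997 in the Oct4 line, 7522 and 7558 in the Sox2 line and 1439 and 1445 in the Nanog line, with Krt8 the most abundant in the Sox2 line and Tfap2c in the others. Of the 8 primitive endoderm markers 5 were called higher and 1 lower in the Oct4 line, 2 and 5 in the Sox2 line, and 3 and 2 in the Nanog line. Their sums went from 2429 and 2467 to 2648 and 2502, from 4109 and 4189 to 2546 and 2500, and from 2523 and 2509 to 963 and 938 in the same order, with Lama1 the most abundant in each. Foxa2 was at 0 in both ESC libraries of the Oct4 line and both L-EPSC libraries of the Sox2 line, and Elf5 in 1 ESC and 1 L-EPSC library of the Nanog line. Of the 8 ESC markers 4, 2 and 5 were called lower, from ESC sums of 76680 and 76218, 64251 and 63764, and 81430 and 82903. The part of these lists in the conversion results was not tested.

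The 10 neural markers (9 listed) summed to 5730 and 5765 in J1 ESCs, 7192 and 7233 in D-EPSCs and 5311 and 5560 in L-EPSCs, with Stmn2 the most abundant in each. Of the 8 tested in J1 cells, 3 were called higher and 2 lower in D-EPSCs, and 2 and 3 in L-EPSCs. Of all genes 10.8% were called higher and 9.98% lower in D-EPSCs, and 8.80% and 11.5% in L-EPSCs. With Dox the sums of the neural markers went from 1996 and 2010 to 582 and 581 in the Oct4 line, from 2654 and 2620 to 1079 and 1137 in the Sox2 line, and from 6198 and 6400 to 4335 and 4219 in the Nanog line. Of the 9 tested, 0, 0 and 1 were called higher and 4, 4 and 2 lower, in the same order. The 8 neural crest markers, given because Foxd3 also marks that lineage, summed to 898 and 858 in J1 ESCs and to between 274 and 359 in the EPSC libraries. In D-EPSCs 1 of the 8 was called, lower (median log2 fold change 0.12), and in L-EPSCs 3 were, each lower (median -0.46). On conversion 1 was called higher and 1 lower in the Oct4 and in the Sox2 line, and 5 higher and 0 lower in the Nanog line. Of all genes 13.0%, 7.99% and 12.2% were called higher and 15.4%, 11.6% and 14.7% lower in these conversions. With Dox 2, 2 and 1 were called higher and 1, 2 and 0 lower, in the Oct4, Sox2 and Nanog lines. The shares of all genes with Dox were 8.53%, 7.79% and 2.80% higher and 10.8%, 7.32% and 2.59% lower. The 8 primitive endoderm markers summed to 966 and 993 in J1 ESCs, 1822 and 1858 in D-EPSCs and 1553 and 1649 in L-EPSCs. Members went both ways in D-EPSCs, with 3 called higher and 1 lower (median log2 fold change -0.02). In L-EPSCs 4 were called higher and 0 lower (median 1.64). With Dox 1, 2 and 0 were called higher and 3, 3 and 1 lower, in the Oct4, Sox2 and Nanog lines. In J1 cells 1 of the 10 trophoblast markers was called higher and 4 lower in D-EPSCs, and 2 and 3 in L-EPSCs. Of the 8 ESC markers 3 were called lower in D-EPSCs and 1 in L-EPSCs, with 0 higher in either. Nanog was at 10085 and 10130 normalized counts in J1 ESCs, 2787 and 2801 in D-EPSCs and 4615 and 4363 in L-EPSCs. The part of these lists in the results was not tested.

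Genes with the most similar pattern over the 18 tet-off libraries were sought among 9926 genes that averaged 100 normalized counts or more, as a description. Pearson's r was highest for Rccd1 (0.935) and Abcb1a (0.910) with Otx2, Ptgis (0.979) and Grk6 (0.974) with Utf1, and H2az1 (0.991) and Kif11 (0.974) with Lin28a. It was highest for Nasp (0.965) and Heatr1 (0.956) with Lin28b, Tmpo (0.970) and Zik1 (0.969) with Zic2, Helb (0.982) and Gjc1 (0.979) with Zic5, and Eed (0.967) and Eng (0.966) with Foxd3. In the 6 J1 libraries the r of these pairs ranged more widely, from -0.886 for Tmpo with Zic2 to 0.953 for Nasp with Lin28b.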

How the data were processed

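The deposited values are a signal. The authors trimmed reads with Trim Galore 0.6.4, aligned them to NCBIM37 with STAR 2.7.9a, counted them per gene with HTSeq 0.11.2 and scaled each library by a DESeq2 size factor. The strand setting is not given in the sources used here. Every value of the 24 columns was a whole number of reads after unscaling, within 0.1 read. The main test was limma 3.58.1 with a trend (R 4.3.3), fitted once per table to log2(normalized count + 1) of genes with over 1 read in total. P-values were adjusted by Benjamini and Hochberg within each comparison. Fold changes on this scale can understate or overstate the change of low genes. For Foxd3 with Dox, limma gave a 31.1-fold fall in the Oct4 line and a 30.5-fold fall in the Sox2 line. The summed reads gave 25.5-fold and 42.5-fold.

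The alternatives were edgeR 4.0.16 and DESeq2 1.42.0 on recovered reads, centring on the median, TMM scaling, keeping all genes or those with a mean of 10 or more, a pseudocount of 0.1, a fit of the groups compared alone, a replicate block, a different fold threshold and leaving out each replicate. For J1 D-EPSCs against ESCs, edgeR called 4501 genes and limma 4466. The tests were also tried on simulated data, where 2 pass criteria set beforehand were not met by limma and were replaced after the results were seen. There limma missed many small changes in genes with few reads, above all at the size of the J1 data. At the size of the tet-off data it made more false calls than its adjusted p states, mostly in genes with a mean under 10. The shares called among all genes therefore hold some false calls of low genes.

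The genes named are the 8 genes in every comparison, the 3 tet-off targets, from each list at most the 4 called genes with the largest change and at least 100 normalized counts in the higher group, and for each of the 8 the 2 genes with the most similar pattern. The text names some of those that the rule allows for the lists, and the most abundant gene of a marker list. The members and lists were chosen with earlier results of these data known. Positions are from the NCBIM37 annotation by gene ID, and Python 3.11.15 with pandas 2.3.3 was used.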

Additional observations from a re-analysis of the deposited data

Results flagged for a closer look

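The difference of an effect between lines, tested as an interaction term by limma, was called for the following genes. For Dox in the Oct4 line minus the Sox2 line these were Lin28a (1.78) and Zic2 (-1.26). For the Oct4 line minus the Nanog line they were Otx2 (-6.32), Zic2 (-4.70), Foxd3 (-4.60, from -6.07 to -3.13 when 1 library is left out) and Zic5 (-3.18). For the Sox2 line minus the Nanog line they were Otx2 (-5.87), Foxd3 (-4.57), Zic2 (-3.44), Zic5 (-2.91), Lin28a (-2.37) and Lin28b (-1.22). For conversion, Zic5 differed between the Oct4 and Sox2 lines (-1.04), Otx2 (1.27) and Foxd3 (2.7) between the Oct4 and Nanog lines, and Otx2 (1.03) and Foxd3 (4.51) between the Sox2 and Nanog lines. Some of these calls end when 1 library is left out. For conversion, Foxd3 between the Oct4 and Nanog lines ends without any of the 8 libraries, and Zic5 without any but Oct4 line L-EPSC replicate 1. Otx2 between the Sox2 and Nanog lines ends without Sox2 line ESC replicate 2 (0.98), Nanog line ESC replicate 1 (0.93) or Nanog line L-EPSC replicate 1 (0.93). For Dox, Zic2 between the Oct4 and Sox2 lines ends without Sox2 line Dox replicate 1 (-0.98), and Lin28b between the Sox2 and Nanog lines without Sox2 line L-EPSC replicate 1 (-0.87). Both conversion calls of Foxd3 end with a pseudocount of 0.1. Values are differences of log2 fold changes. Nanog transcript was reduced to an intermediate level with Dox while Pou5f1 and Sox2 were at low levels in their lines, so the factor and the level of its transcript left with Dox cannot be told apart. Protein was not analysed here.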

How the results depend on the processing

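Alternatives other than leaving out a replicate and the other fold change threshold gave 609 log2 fold changes of the 7 genes. Of these, 601 kept their direction and stayed called or not called, by adjusted p and fold together. A further 3 were no longer called, 5 were newly called and 0 changed direction. Of 126 differences between lines, 121 kept both and 2 changed direction. Leaving out 1 replicate, which assumes that the lone library varies like the other groups, kept both in 244 of 252 fold changes and 303 of 336 differences.

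With the other fold change threshold the genes called were 2899 for J1 L-EPSCs against ESCs, 1836 for L-EPSCs against D-EPSCs (2 of the 7 genes), 4466, 2990 and 4196 for the conversions of the Oct4, Sox2 and Nanog lines, and 5568 and 2386 for Dox in the Sox2 and Nanog lines (6 of the 7 genes in the latter). With it 5 of the 7 genes were called for J1 D-EPSCs against ESCs, and 5, 3 and 5 for the conversions. Fitting its groups alone, 479 genes were called for Dox in the Nanog line (181 higher and 298 lower). By edgeR 2 of the 7 genes were called for the conversion difference of the Oct4 and Sox2 lines and 1 between their ESCs. With a pseudocount of 0.1, 1 was called for each of the other conversion differences. The other fold change threshold alters the counts by construction. For the other alternatives, among them the fit of the groups compared alone, the cause was not tested.

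Without 1 replicate, 1913 to 2104 genes were called between the J1 EPSC states. Of the 7 genes, 2 to 4 were called for the Dox difference of the Oct4 and Sox2 lines, 0 to 1 for their conversion difference, 1 to 1 for that of the Oct4 and Nanog lines and 1 to 2 for that of the Sox2 and Nanog lines. For these 4 differences in the same order, 6.81%, 5.36%, 8.58% and 9.16% of all genes were called in the main test. The counts among the 7 genes were not tested against these shares. Directions that changed were of genes not called in the main test. Without 1 replicate, Zic2 on conversion in the Sox2 line ran from -0.0553 to 0.15. Foxd3 with Dox in the Nanog line ran from -0.77 to 0.0605. For the Dox difference of the Oct4 and Sox2 lines, Zic5 ran from -0.63 to 0.0743 and Foxd3 from -1.49 to 1.44 (0.73 by edgeR). Both ends of the range of Foxd3 lay beyond the threshold of 1, in opposite directions. For their conversion difference, Utf1 ran from -0.0768 to 0.0207 and Lin28b from -0.31 to 0.39 (-0.00617 with median centring). The cause was not tested.

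With the replicate number as a block, limma called 4349 genes for J1 D-EPSCs against ESCs, 4257 for L-EPSCs against ESCs and 1226 for Dox in the Nanog line. Replicate numbers did not pair libraries: the deviations of same-numbered replicates correlated at -0.0093 to -0.0013 over 3 pairs of J1 groups and -0.0279 to 0.0402 over 36 pairs of tet-off groups. With 2 libraries a group, an exact permutation test could reach no p under 0.333.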
